A study of Homo sapiens with 6 samples.

Results

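The genes described here encode the secreted ligands of the WNT pathway, the receptors that read them, the proteins that restrain them and the DNA-binding factors at the end of the pathway. They are 50 genes of 20033 protein-coding genes on chromosomes 1 to 22, X and Y: 19 WNT ligands, 14 receptors (10 Frizzled receptors, the co-receptors LRP5 and LRP6, and the receptor kinases ROR1 and ROR2), 9 secreted antagonists, 4 inhibitors inside the cell or in its membrane (AXIN1, AXIN2, RNF43 and ZNRF3) and 4 nuclear effectors (LEF1, TCF7, TCF7L1 and TCF7L2). The genes were listed by name and role, with no threshold on a measured value. A peak was counted at a gene when its summit lay in the gene itself or in the 5000 bp upstream (hg38, GENCODE 44), and this stretch is called the window of the gene.

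The peaks come from chromatin immunoprecipitation followed by sequencing (ChIP-seq) in 786-O, an established clear cell renal cell carcinoma line. DPF3a, the short isoform of a subunit of the BAF chromatin remodelling complex, was precipitated by its HA tag from cells overexpressing HA-DPF3a. SMAD4, the partner of all receptor-activated SMAD proteins in TGF-β and BMP signalling, and the histone acetyltransferase p300 were precipitated with antibodies against the proteins themselves. Each factor had 2 libraries (6 samples in all), but only 1 peak list, and the series' own notes say that both libraries went into it. No spread between replicates and no test can therefore be given, and the intervals printed below are exact Poisson or Wilson 95% intervals that cover counting error only. Disuccinimidyl glutarate, which links proteins to each other, was added to formaldehyde for DPF3a and not for SMAD4 or p300, and it is not stated if the cells of the SMAD4 and p300 libraries carried HA-DPF3a as well. Factor, antibody and fixation cannot be told apart, so values are compared within a list.

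WNT proteins are lipid-modified secreted glycoproteins that bind the cysteine-rich domain of a Frizzled receptor. When LRP5 or LRP6 joins the complex, the cytoplasmic scaffold AXIN1 is drawn to the membrane, β-catenin is no longer degraded and it acts with TCF/LEF factors on target genes. ROR1 and ROR2 carry signals of WNT5A-type ligands that do not pass through β-catenin. DKK proteins bind the LRP co-receptors, SFRP proteins and WIF1 bind the ligands, and the ubiquitin ligases RNF43 and ZNRF3 remove Frizzled receptors from the cell surface. In the developing kidney, WNT9B and WNT4 direct the formation of nephrons.

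A site of all 3 factors, here a DPF3a peak that shared at least 0.5 of its length with a SMAD4 peak and with a p300 peak and covered as much of theirs, was found at 15 of the 50 genes. The sequences below reach 50 bases to each side of the DPF3a summit of 8 of the 10 strongest such sites, at most 1 per gene, printed because these are the places where the 3 lists meet at WNT pathway genes. They are ordered by the product of the fold enrichment percentiles of their 3 peaks and are read from hg38, plus strand, 5′ to 3′. Capitals mark exact matches on either strand to CAGAC, the element that SMAD proteins bind, or to CTTTGA, the core bound by TCF/LEF factors. The windows were also searched for GTCTAGAC, the SMAD palindrome, for TGACTCA, the AP-1 element, and for TGTGGTT, the RUNX element.
ROR1 chr1:63969751-63969851: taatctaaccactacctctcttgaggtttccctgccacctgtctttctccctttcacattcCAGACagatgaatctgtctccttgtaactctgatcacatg
ROR2 chr9:91795970-91796070: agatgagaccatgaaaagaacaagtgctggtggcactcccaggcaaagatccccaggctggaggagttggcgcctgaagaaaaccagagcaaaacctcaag
TCF7L2 chr10:113073908-113074008: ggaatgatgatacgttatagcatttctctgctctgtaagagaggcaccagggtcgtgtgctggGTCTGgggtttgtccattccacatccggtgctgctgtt
WNT2B chr1:112466288-112466388: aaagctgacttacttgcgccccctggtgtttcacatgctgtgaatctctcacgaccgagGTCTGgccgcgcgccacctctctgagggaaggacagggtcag
WNT7B chr22:45934791-45934891: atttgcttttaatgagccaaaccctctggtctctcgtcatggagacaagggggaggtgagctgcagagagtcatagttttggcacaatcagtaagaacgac
FZD5 chr2:207769828-207769928: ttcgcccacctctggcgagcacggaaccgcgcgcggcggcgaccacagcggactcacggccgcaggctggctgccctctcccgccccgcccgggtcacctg
FZD1 chr7:91264340-91264440: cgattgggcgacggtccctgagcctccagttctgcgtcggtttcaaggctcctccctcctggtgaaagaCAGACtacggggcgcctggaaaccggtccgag
SFRP4 chr7:37943268-37943368: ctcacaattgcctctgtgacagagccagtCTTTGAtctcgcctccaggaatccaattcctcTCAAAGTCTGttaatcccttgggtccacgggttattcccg

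Of these 8 windows, 5 held a CAGAC match (ROR1, TCF7L2, WNT2B, FZD1 and SFRP4) and 3 held no match to any of the 5 motifs (ROR2, WNT7B and FZD5). The SFRP4 window held a CTTTGA match on each strand, and that on the minus strand overlaps the CAGAC match by 1 base. The GC content ran from 44.6% at ROR1, which is intronic, to 77.2% at FZD5, which lies at the transcript start. A match describes the letters in the window and no match says nothing about the factor.

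The 3 lists together placed 324 peaks at the 50 genes. A DPF3a peak was present at 34 genes (68%, against 65.8% of all protein-coding genes), a SMAD4 peak at 32 (64%, against 72.3%) and a p300 peak at 19 (38%, against 51.6%). Of the 50 genes, 30% held a site of all 3 factors, against 29.9% of all protein-coding genes. For DPF3a and for the sites of all 3, the share of WNT pathway genes with a peak was thus near that of all coding genes, and for SMAD4 and p300 it was lower. No test was made of these differences.

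The number of peaks per length of window gave another picture than the share of genes, for p300 only with ROR1 included. The genes held 136 DPF3a, 137 SMAD4 and 51 p300 peaks, or 0.36, 0.363 and 0.135 peaks per 10 kb of window, against 0.245, 0.239 and 0.119 over all coding genes. These peaks were unevenly spread. The 5 genes with the most peaks, ROR1, ROR2, TCF7L2, ZNRF3 and SFRP4, held 50% of the DPF3a, 40.9% of the SMAD4 and 51% of the p300 peaks, and ROR1 alone held 21.3%, 16.8% and 21.6%. Without ROR1 the densities were 0.318, 0.339 and 0.119 peaks per 10 kb. The p300 density then equalled that of all coding genes, and those of DPF3a and SMAD4 stayed higher.

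**Figure D1:**
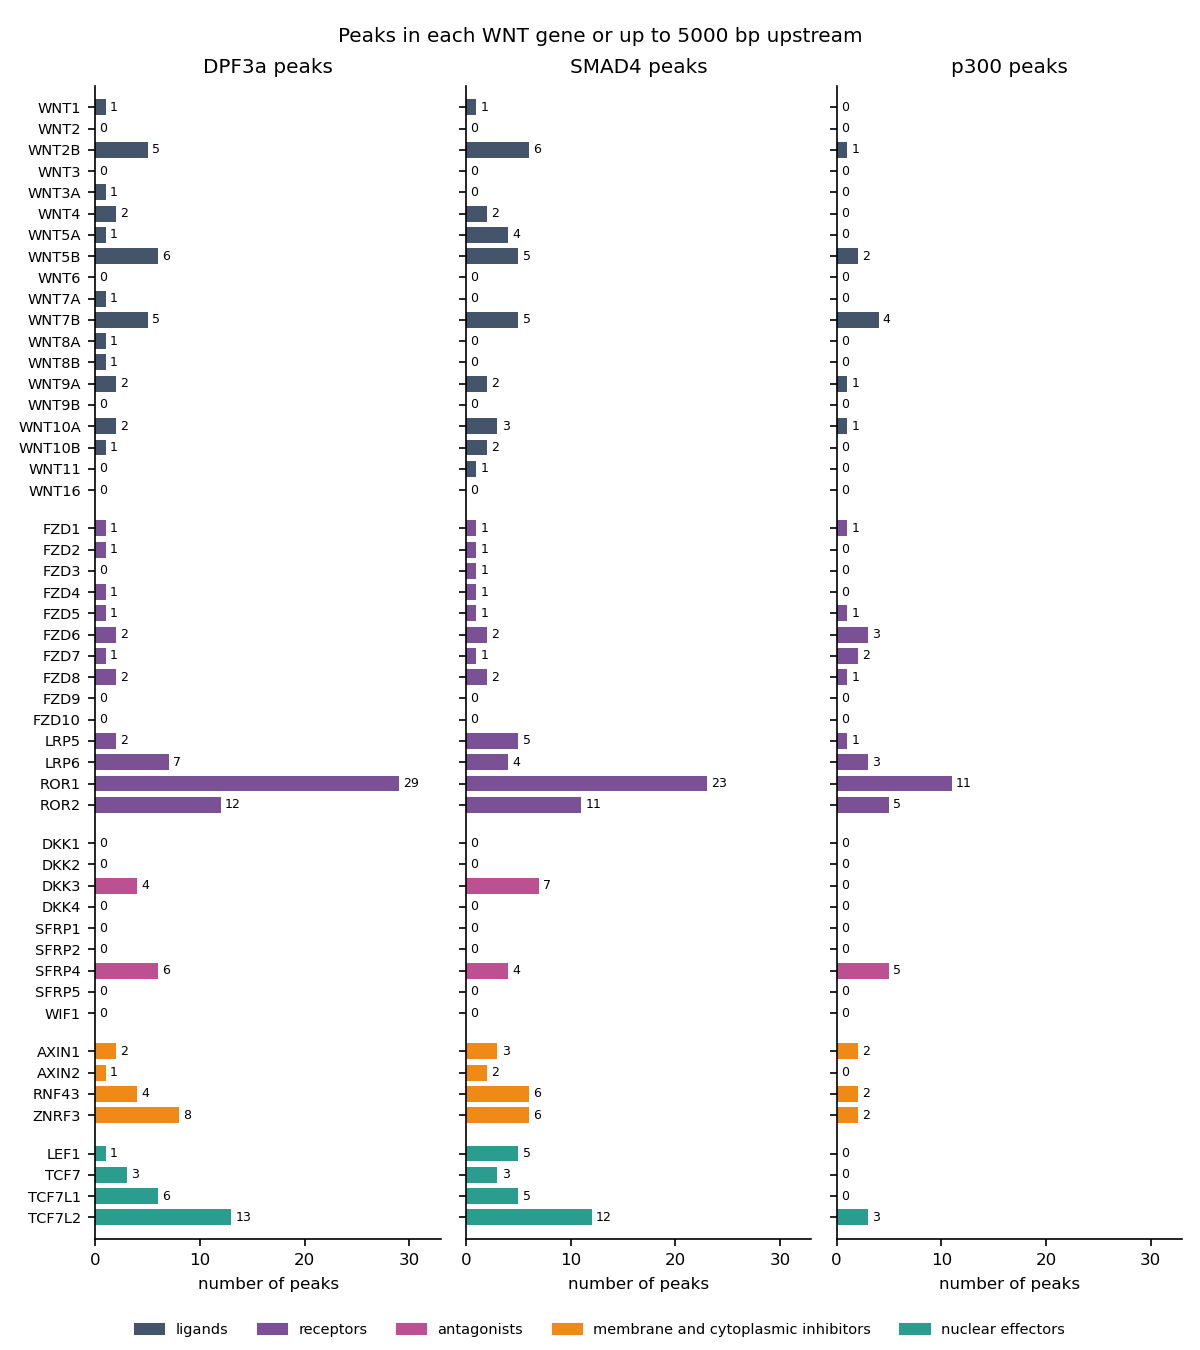
Number of peaks of each list (x axis, DPF3a, SMAD4 and p300 side by side) with a summit in the window of each of the 50 genes (y axis), ordered by class. ROR1 has 29 DPF3a, 23 SMAD4 and 11 p300 peaks, and 14 genes, 7 of them secreted antagonists, have none in any list.

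A longer window has more room for a peak, so the genes were also set beside coding genes of 3 broad classes of window length. The class over 100000 bp has no upper limit. Ranks of single genes within a class are by number of peaks, not by density. In the 11 genes with windows over 100000 bp, 90.9% held a DPF3a peak, against 88.8% of coding genes of that length, and the density was 0.371 DPF3a peaks per 10 kb against 0.197. SMAD4 gave 0.33 against 0.165 peaks per 10 kb in these windows and p300 gave 0.132 against 0.0802. The pathway's long genes therefore held about as many genes with a peak as other long genes did, but more peaks per length. ROR1 alone gave 29 of the 90 DPF3a, 23 of the 80 SMAD4 and 11 of the 32 p300 peaks of these 11 genes. The densities of this length class without ROR1 were not computed. In the 23 genes with windows of 20000 to 100000 bp, the share with a peak was below that of coding genes of that length in all 3 lists, at 65.2% against 73.5% for DPF3a, 60.9% against 80.3% for SMAD4 and 30.4% against 58.4% for p300. In the 16 genes with windows under 20000 bp it was 56.2% against 43.1%, 50% against 53.3% and 25% against 30.3%. Windows of 20000 to 100000 bp held 0.307 against 0.313 DPF3a, 0.401 against 0.338 SMAD4 and 0.12 against 0.175 p300 peaks per 10 kb. Under 20000 bp the densities were 0.568 against 0.453, 0.568 against 0.599 and 0.284 against 0.288. The density was thus higher in all 3 lists only in windows over 100000 bp.

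The classes of the pathway differed in how many of their genes held a peak. Receptors led among the larger classes, with 11 of 14 holding a DPF3a peak, 12 a SMAD4 peak, 9 a p300 peak and 7 a site of all 3. Of the 19 ligand genes, 13 held a DPF3a, 10 a SMAD4 and 5 a p300 peak, and 5 held a site of all 3. Over all protein-coding genes the shares were 65.8% for DPF3a, 72.3% for SMAD4, 51.6% for p300 and 29.9% for a site of all 3. The DPF3a count of the ligands was near that share. Receptor windows ran from 7343 bp at FZD9 to 412482 bp at ROR1, and the class counts are not adjusted for length. Of the 9 secreted antagonists, 2 held a DPF3a and a SMAD4 peak, and 1 of these also a p300 peak. All 4 inhibitors and all 4 nuclear effectors held a DPF3a and a SMAD4 peak, and the counts for p300 were 3 and 1. Of the 4 nuclear effectors, 3 have windows over 100000 bp, where 88.8% of coding genes hold a DPF3a and 87.5% a SMAD4 peak, and 3 of the 4 inhibitors have windows of 20000 to 100000 bp, where the shares are 73.5% and 80.3%. With 4 to 19 genes in a class, a single gene moves these shares by several percentage points.

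**Figure D2:**
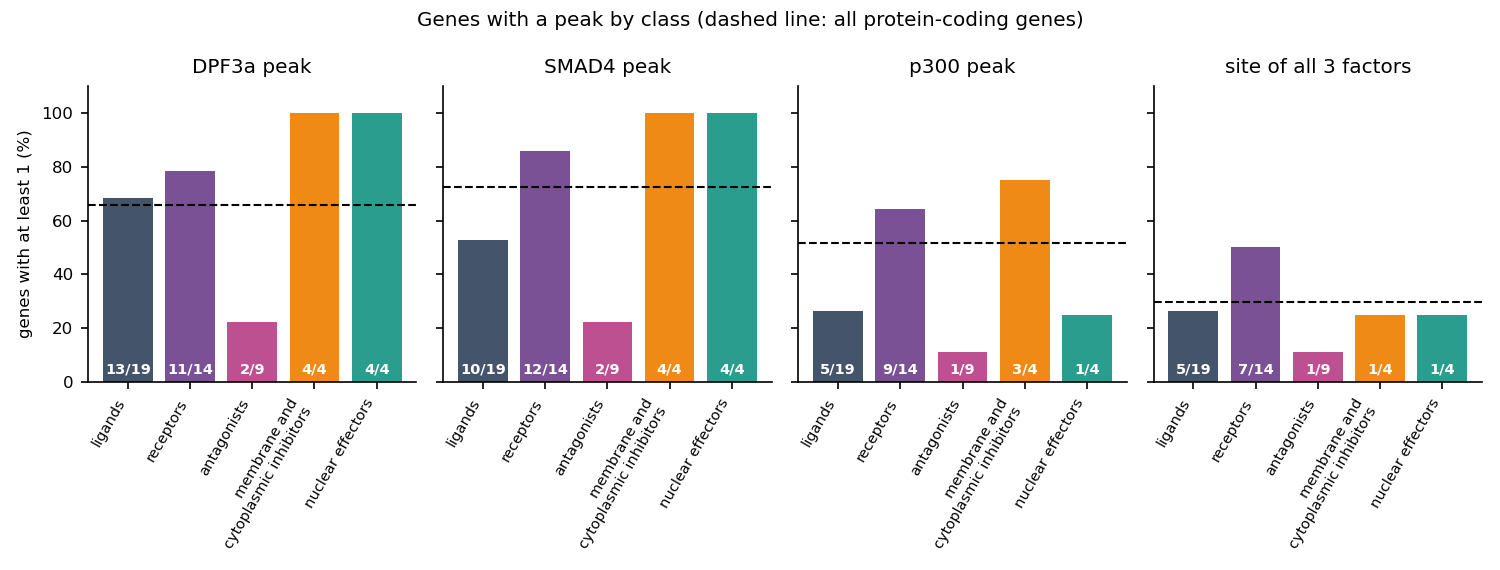
Percent of the genes of each class (x axis groups) that hold a DPF3a, SMAD4 or p300 peak or a site of all 3 factors (a panel each, bars from 0), with the share of all protein-coding genes as a dashed line. The 9 secreted antagonists stand at 22.2% for DPF3a and SMAD4 and 11.1% for p300, below the coding-gene shares of 65.8%, 72.3% and 51.6%.

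Among the ligand genes, WNT2B, WNT5B, WNT7B, WNT9A and WNT10A held peaks of each list. WNT7B, which encodes a ligand of the β-catenin branch used in kidney medulla and lung development, had 5 DPF3a, 5 SMAD4 and 4 p300 peaks in a window of 61797 bp, and 3 of them formed sites of all 3 factors. The site in intron 1, 7946 bp into the gene, had a fold enrichment of 12.1 for DPF3a (100 reads at the summit), 11.7 for SMAD4 (240 reads) and 4.27 for p300 (45 reads). Fold enrichment is the read pileup at the summit plus 1 over the local background plus 1, as the peak caller gave it. The site in intron 2, 42321 bp into the gene, whose sequence is printed above, had folds of 11.7, 11.6 and 4.30, and the site in intron 3, at 51083 bp, had 8.36, 11 and 4.43. Of 9198 coding genes with windows of 20000 to 100000 bp, 122 (1.33%) had 4 or more p300 peaks as WNT7B did.

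WNT2B, the other ligand gene with several strong peaks, had 5 DPF3a, 6 SMAD4 and 1 p300 peaks. Its site of all 3 lay at another transcript start, 42627 bp upstream of the canonical start, with folds of 6.77 for DPF3a (95% interval 4.10 to 10.6, 17 reads), 7.63 for SMAD4 (5.71 to 10, 50 reads) and 5.34 for p300 (3.70 to 7.47, 32 reads). The highest DPF3a fold at any ligand gene was at another place, in intron 2 of WNT2B (chr1:112515475-112516197), with 14.8 (12.1 to 18.0, 99 reads), above 98.0% of all DPF3a peaks. A SMAD4 peak with fold 7.94 was shared there and no p300 peak was. Another place in the gene, in an untranslated part of exon 5, had folds of 13.5 for DPF3a and 8.44 for SMAD4, again without p300. The gene's strongest DPF3a peaks were thus not the one that p300 shared.

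The remaining sites of all 3 at ligand genes were single. WNT9A held one in intron 1 at 1449 bp (folds 8.02, 6.07 and 3.74 for DPF3a, SMAD4 and p300). WNT10A, whose loss in people affects teeth and hair, held one in coding exon 4, at the start of another transcript of the gene (7.64, 7.73 and 4.40). WNT5B held one at −23044 bp from its canonical start but inside a longer transcript (8.53, 5.25 and 4.39). That place lies nearer to the start of FBXL14, as do 5 of the 6 DPF3a peaks, all 5 SMAD4 peaks and both p300 peaks in the WNT5B window, and which gene they belong to was not tested.

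The other ligand genes had peaks of fewer lists. WNT4, which acts in nephron formation, had a SMAD4 peak near its start with fold 11.7 (9.52 to 14.2, 99 reads) that shared its place with a DPF3a peak of 4.91 (15 reads), and a further shared pair in intron 1 (DPF3a 8.33, SMAD4 6.5). WNT5A, the ligand that ROR1 and ROR2 read, had 4 SMAD4 peaks of low fold (3.16 to 4.43) around its starts and a DPF3a peak of 4.31. The DPF3a peak lay inside a SMAD4 peak, with summits at 108 and 125 bp, but was too narrow for the rule of 0.5 of both peaks and so did not count as shared. WNT10B had a shared pair just upstream of its start (8.67 and 10.4), and WNT1 had a DPF3a peak of 4.62 and a SMAD4 peak of 4.29 in its promoter that did not overlap enough to be shared. WNT3A, WNT7A, WNT8A and WNT8B had a lone DPF3a peak each, of 11 to 14 reads and folds of 5.26 to 6.42, and WNT11 a lone SMAD4 peak of 21 reads and fold 5.45. At 11 reads the interval of a fold of 5.26, that of WNT3A, runs from 2.85 to 9.07. WNT2, WNT3, WNT6, WNT9B and WNT16 had no peak in any list.

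Among the receptors, 8 of the 10 Frizzled genes held a peak. Apart from FZD3 and FZD6, their windows were under 20000 bp, and their peaks lay close to the transcript start except 4 peaks deep inside FZD6. Of the 9 DPF3a peaks at Frizzled genes, 1 each at FZD1, FZD2, FZD4, FZD5, FZD6 and FZD7 lay in promoters, here from 1000 bp upstream to 100 bp downstream of any transcript start of the gene. FZD1 had a site of all 3 at its start with a DPF3a fold of 12.3 (10 to 14.9, 99 reads), a SMAD4 fold of 8.14 and a p300 fold of 4.43. FZD5 had one with folds of 9.39, 9.85 and 4.50. Both sequences are printed above, and the p300 summits lay further into the gene, 243 bp and 457 bp from the start, than the DPF3a summits at −43 bp and 28 bp.

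FZD6 encodes a receptor known from planar cell polarity. Its promoter peak had the highest p300 fold of all 50 genes, 8.10 (5.85 to 11, 40 reads), above 98.3% of the p300 list, with 7.93 for SMAD4 and a DPF3a fold of 4.48 (2.75 to 6.95, 18 reads). It had 3 p300 peaks, and 4.44% of coding genes of its length class had as many. Only the p300 peak at the promoter was shared with DPF3a or SMAD4. FZD6 lies on chromosome 8. Chromosomes 5, 7 and 8 together held 32.9% of the p300 list's peaks shared with neither factor, against 16.8% of its other peaks. Whether the rank of FZD6 is a trait of the gene was not tested. FZD7, with 2 p300 peaks, had as many as 3.45% of its length class. FZD7 and FZD8 had peaks of each list but no site of all 3. At FZD7 the DPF3a and SMAD4 peaks (4.43 and 7.95) were shared at the start and the p300 peaks (3.64 and 3.78) lay on either side of them, at −533 bp and 468 bp. At FZD2 and FZD4 a DPF3a and a SMAD4 peak were shared at the promoter (9.96 and 8.11 at FZD2, 4.40 and 8.35 at FZD4). The FZD4 peaks overlapped enough to count, but their summits lay 861 bp apart, the largest distance of the 87 shared DPF3a and SMAD4 pairs. FZD3 had a lone SMAD4 peak of 7.93, and FZD9 and FZD10 had none.

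The co-receptor genes both held a site of all 3, in different parts of the gene. At LRP6 it lay in the promoter, with folds of 8.02 for DPF3a (5.46 to 11.4, 29 reads), 13.4 for SMAD4 (11.5 to 15.7, 163 reads) and 5.67 for p300 (4.02 to 7.80, 36 reads). At LRP5 it lay in intron 2 (chr11:68354133-68354947), 41977 bp into the gene, and had the highest DPF3a fold of the receptor class, 15 (12.3 to 18.0, 111 reads), with 10.3 for SMAD4 and 3.53 for p300. The LRP5 promoter had a SMAD4 peak alone (6.72). LRP6 had 6 further DPF3a peaks in introns 2, 3 and 7, with folds of 4.89 to 7.05 and at most 20 reads.

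ROR1, a receptor kinase abundant in embryonic tissue and in several tumours, had more peaks than any other of the 50 genes. Its window of 412482 bp held 29 DPF3a, 23 SMAD4 and 11 p300 peaks, or 0.703, 0.558 and 0.267 per 10 kb. Of 3852 coding genes with windows over 100000 bp, 16 (0.415%) had as many DPF3a peaks, 33 (0.857%) as many SMAD4 peaks and 55 (1.43%) as many p300 peaks. These ranks use counts in a class without an upper length limit, so the length of ROR1 is not taken out of them. Of the 29 DPF3a peaks, 28 were intronic and 19 lay in intron 1. They were spread from 193 bp to 398075 bp from the start, with folds from 3.46 to 14.8, and 5 of them were above the 90th percentile of the DPF3a list. Of the 29, 18 were shared with SMAD4, 7 with p300 and 10 with neither. For 12 DPF3a, 8 SMAD4 and 4 p300 peaks, all at 217866 bp or further into ROR1, the nearest coding start was that of UBE2U, and which gene those peaks act on was not tested.

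The 6 sites of all 3 factors at ROR1 lay 193, 21152, 103988, 119192, 195784 and 359214 bp from the start. The site in intron 4 at 359214 bp had the highest SMAD4 fold of the receptor class, 14.3 (12.1 to 16.8, 143 reads), together with 14.3 for DPF3a and 5.41 for p300. The site at 195784 bp, which leads the sequences printed above, had folds of 14.2, 10.6 and 5.97. At the start itself DPF3a had a fold of 5.08, SMAD4 of 6.51 and p300 of 4.31. The stronger peaks of this gene were therefore far from its start. The DPF3a peak of highest fold in ROR1, 14.8 with 131 reads at 146672 bp, was not shared with p300, whose nearest summit lay further on, at 147338 bp.

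ROR2, the other kinase of the family, had 12 DPF3a, 11 SMAD4 and 5 p300 peaks in a window of 392138 bp. Its strongest site of all 3 lay in intron 1, 154208 bp from the start, with folds of 10.2 (8.22 to 12.5, 91 reads), 12.2 (10 to 14.6, 111 reads) and 6.40 (4.65 to 8.60, 42 reads), and a weaker one lay at 44084 bp (5.41, 4.65 and 4.59). A shared DPF3a and SMAD4 peak at 140464 bp had folds of 10.8 and 11.7 without p300. Near its start ROR2 had 2 SMAD4 promoter peaks (5.31 and 5.73) and a p300 peak (3.54) but no DPF3a peak. Of coding genes of the same length class, 8.49% had as many DPF3a, 7.87% as many SMAD4 and 10.7% as many p300 peaks. As for ROR1, these ranks do not take out the length of the gene. The densities at ROR2 were 0.306, 0.281 and 0.128 peaks per 10 kb.

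**Figure D3:**
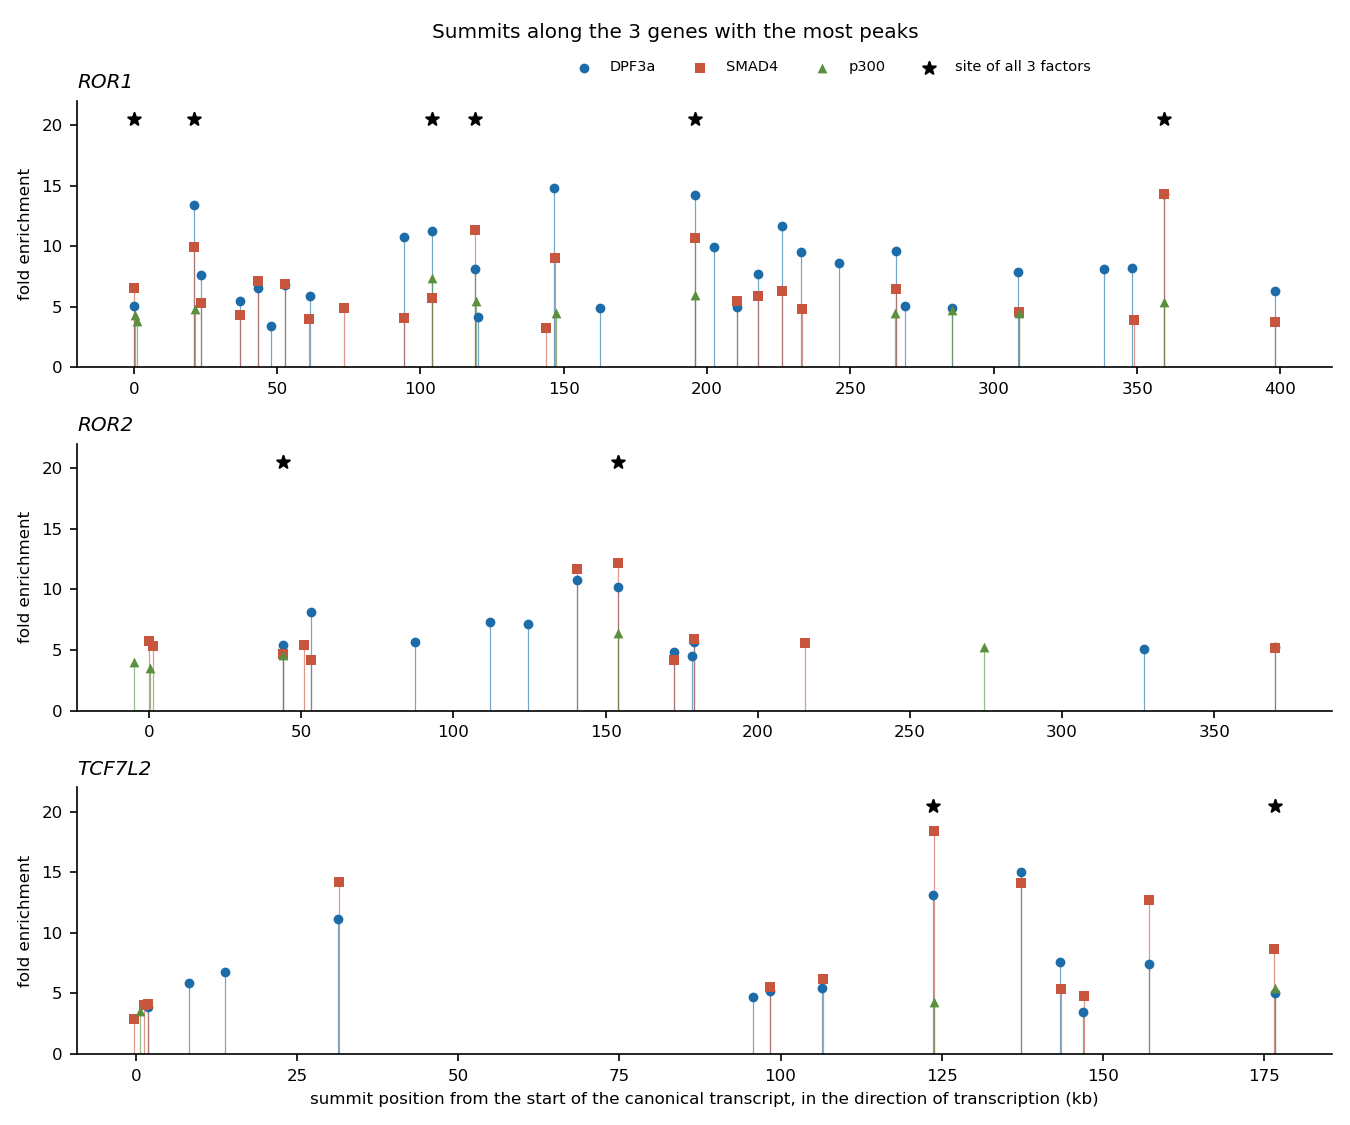
Position of each summit in the 3 genes with the most peaks (a panel each), as distance from the canonical start in kb (x axis), with fold enrichment on the y axis, 1 marker type per list and stars for the sites of all 3 factors. In ROR1 the DPF3a summits run from 193 bp to 398075 bp, and the star at 359214 bp marks folds of 14.3 for both DPF3a and SMAD4.

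The secreted antagonists formed the class with the fewest DPF3a and SMAD4 peaks. For p300 the nuclear effectors had fewer, 3 against 5 at the antagonists. Among the antagonists, many genes had no peak at all. DKK1, DKK2, DKK4, SFRP1, SFRP2, SFRP5 and WIF1 had no peak in any list, which is 77.8% of the class against 24.4% of all coding genes. By window length, 4 of the 4 antagonists under 20000 bp had no peak, against 44.5% of coding genes of that length, 2 of the 3 of 20000 to 100000 bp, against 16.4%, and 1 of the 2 over 100000 bp, against 7.22%. That last gene is DKK2, with a window of 367005 bp. The count depends on the window. With 20000 bp upstream, 4 of the 9 genes had a DPF3a peak, 4 a SMAD4 peak and 3 a p300 peak, where all coding genes stood at 72.8%, 77.1% and 57.2%. With each peak given to the nearest coding start within 100000 bp, the counts were 6, 4 and 2, where all coding genes stood at 66.5%, 70.4% and 48.7%. By nearest start the share with a DPF3a peak thus equalled that of coding genes to within 1 gene, and in the other 5 cases it was lower.

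DKK3 and SFRP4 were the antagonists with peaks. DKK3, the divergent member of its family, had 4 DPF3a peaks, 7 SMAD4 peaks and none of p300. Its DPF3a peaks all lay in intron 3, where the strongest had a fold of 10.2 (7.69 to 13.4, 52 reads) beside a SMAD4 fold of 6.71, and its highest SMAD4 fold, 7.5 (5.50 to 10, 44 reads), was at a promoter without DPF3a. Of 9198 coding genes of its length class, 135 (1.47%) had as many SMAD4 peaks. SFRP4, a secreted Frizzled-related protein, had 6 DPF3a, 4 SMAD4 and 5 p300 peaks, but the annotation extends it over EPDR1, and 5, 3 and 4 of these peaks had their nearest coding start at EPDR1. Its sites of all 3 lay at −4632 bp (4.66, 4.97 and 4.10) and −26501 bp (6.38, 5.99 and 5.60) from its canonical start, and the highest fold, 11.1 for DPF3a (7.91 to 15.2, 37 reads), lay at −71155 bp. Only the DPF3a and SMAD4 peaks at the promoter (4.47 and 3.79) and a p300 peak in coding exon 6 (5.91, 17 reads) were nearest to SFRP4 itself.

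All 4 inhibitors inside the cell or in its membrane held peaks, with the strongest at AXIN1. The site in intron 2 of AXIN1 had folds of 11.7 for DPF3a (9.44 to 14.4, 88 reads), 15.4 for SMAD4 (13.2 to 17.7, 186 reads) and 5.22 for p300 (3.85 to 6.93, 46 reads). The SMAD4 value was above 99.2% of the SMAD4 list. A weaker site of all 3 lay in intron 1 at 3451 bp (7.64, 3.71 and 4.18), and the AXIN1 promoter had a SMAD4 peak alone (6.52). AXIN2, itself a widely used target of β-catenin signalling, had 1 DPF3a peak of 9.0 in intron 2 shared with a SMAD4 peak of 4.41, a SMAD4 peak of 5.20 at its promoter and no p300 peak.

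RNF43 and ZNRF3 held peaks of each list but no site of all 3. At RNF43, the DPF3a peaks lay in intron 2, with the highest fold 10.3 (49 reads) at 25910 bp, where the SMAD4 fold was 9.36 and the p300 fold 4.85. The SMAD4 and p300 peaks there were shared with each other, but the DPF3a and p300 peaks overlapped by too little. The promoter had SMAD4 and p300 peaks (6.18 and 5.25) without DPF3a. ZNRF3 had 8, 6 and 2 peaks, and its DPF3a promoter peak of 4.79 (15 reads) was shared with a p300 peak of 3.92 while the SMAD4 peak there had 9.26. The nearest coding start was that of C22orf31 for 5 DPF3a and 3 SMAD4 peaks in ZNRF3.

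Among the nuclear effectors, TCF7L2 had 13 DPF3a, 12 SMAD4 and 3 p300 peaks, and the other genes of the class had no p300 peak. The site in intron 5 at 123711 bp, printed above, had the highest SMAD4 fold of all 50 genes, 18.4 (16.3 to 20.8, 270 reads), above 99.8% of the SMAD4 list, with 13.1 for DPF3a (10.8 to 15.8, 112 reads) and 4.32 for p300 (2.98 to 6.08, 31 reads). The highest DPF3a fold of all 50 genes, 15.1 (12.4 to 18.1, 111 reads), was in the same intron at 137276 bp (chr10:113087181-113087867), where SMAD4 had 14.1 and no p300 peak was shared. A second site of all 3 at 176646 bp, at the start of a shorter transcript, had 5.06, 8.63 and 5.46. Of coding genes of the same length class, 7.09% had as many DPF3a and 6.36% as many SMAD4 peaks, again by count and not by density.

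TCF7L1, a factor that mostly represses, had 6 DPF3a and 5 SMAD4 peaks. Its strongest were in intron 4 (14.5 for DPF3a with 93 reads, 5.62 for SMAD4) and in coding exon 12 (8.97 and 12.9), both nearer to the start of TGOLN2. LEF1 had 5 SMAD4 peaks, 2 of them in promoters, and a DPF3a peak of 6.91 (14 reads) that was not shared. TCF7 had a DPF3a and a SMAD4 peak at its start (5.45 and 7.91), a shared pair in intron 3 (7.01 and 6.83) and further unshared peaks at the starts of shorter transcripts (8.38 and 4.71).

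Promoters lie inside the windows, so the share of genes with a promoter peak cannot exceed the share with a peak in the window. A promoter peak was present at 15 of the 50 genes for DPF3a (30%, against 41.7% of all coding genes), at 25 for SMAD4 (50%, against 57.2%) and at 9 for p300 (18%, against 32.9%). WNT2B, WNT10A, FZD6, LRP6 and TCF7L2 had a promoter peak of each list. At 10 genes the promoter had SMAD4 alone (WNT5A, WNT7B, WNT10B, FZD3, LRP5, DKK3, AXIN1, AXIN2, LEF1 and TCF7L1), and by the same limits ZNRF3 counted with DPF3a alone and ROR1 with p300 alone. The counts of ZNRF3 and ROR1 rest on the limit of 100 bp. The SMAD4 and p300 summits of ZNRF3 lay at 118 bp and the DPF3a and SMAD4 summits of ROR1 at 193 and 188 bp. At WNT5A a DPF3a summit also lay just past that limit. At WNT10B a DPF3a peak shared with a SMAD4 promoter peak had its summit just past the limit of 1000 bp upstream. SMAD4 alone in a promoter thus does not mean that no DPF3a peak was near. The share of peaks in promoters was 16 of 136 for DPF3a, 33 of 137 for SMAD4 and 11 of 51 for p300, and introns held 94, 77 and 24. These shares of peaks were not computed over the whole lists by the same rule. With promoters of 2500 bp on both sides of a start, 27 genes (54%) had a DPF3a, 32 (64%) a SMAD4 and 16 (32%) a p300 promoter peak, where all coding genes stood at 54.3%, 65.6% and 45.2%. At that width the DPF3a and SMAD4 shares were near those of all coding genes and the p300 share was lower.

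The 26 sites of all 3 factors were mostly away from promoters. Promoters held 7 of them, introns outside promoters 15 and other places 4, and 17 lay more than 10000 bp from the canonical start. The summits of the 3 factors spanned a median of 88.5 bp, and at 14 sites they spanned 100 bp or less. Pairwise, the DPF3a and SMAD4 summits of 87 shared peaks were a median of 40 bp apart, with 51 within 50 bp. The distance was 69 bp for the 28 DPF3a and p300 pairs and 72.5 bp for the 30 SMAD4 and p300 pairs. Positions and distances were not computed for the sites and pairs of the whole lists. They therefore describe these sites and are not shown to be particular to WNT genes.

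**Figure D4:**
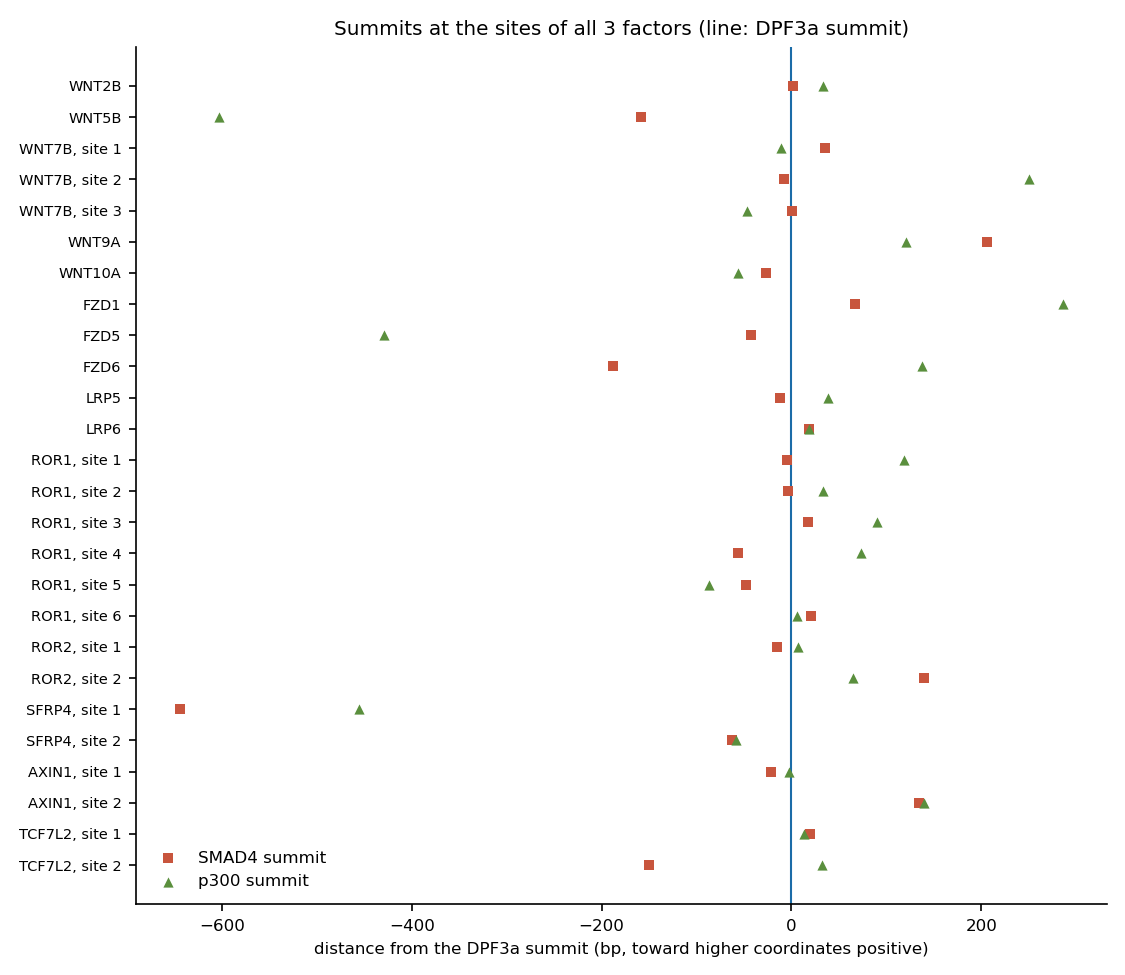
Distance of the SMAD4 and p300 summits from the DPF3a summit in bp (x axis) at each of the 26 sites of all 3 factors (y axis, named by gene, with a site number where a gene has several). The summits of the 3 factors span 100 bp or less at 14 sites, with a median span of 88.5 bp.

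Of the 136 DPF3a peaks, 87 were shared with SMAD4 (64%, 55.6 to 71.6, against 59.3% of the whole list), 28 with p300 (20.6%, 14.6 to 28.1, against 16.6%) and 47 with neither (34.6%, 27.1 to 42.9, against 39.3%). Of the 51 p300 peaks, 28 were shared with DPF3a (54.9%, 41.4 to 67.7, against 41.9%) and 30 with SMAD4 (58.8%, 45.2 to 71.2, against 50.7%). Both other factors shared 26 of the 51 p300 peaks (51%, 37.7 to 64.1, against 37.1%), and this was the only one of the 12 shares computed (4 per list) for which the value of the whole list lay outside the Wilson interval. The intervals take each peak as independent, although ROR1 alone gave 11 of the 51, and the whole list includes peaks far from any gene. The difference was not tested. The 19 p300 peaks shared with neither factor had a median of 19 reads, and 11 of them (57.9%) had at most 20 reads, while the 32 shared p300 peaks had a median of 28.5 reads. The whole p300 list had the same pattern, with medians of 17 and 27 reads and 71.3% of the unshared peaks at 20 reads or fewer. Chromosomes 5, 7 and 8 held 26.3% of the unshared p300 peaks at these genes, against 12.5% of the shared ones. In the whole p300 list they held 32.9% and 16.8%. The cause of this was not tested.

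The level of the peaks went with their sharing for SMAD4 and, at these genes, for DPF3a. The median fold of the DPF3a peaks was 8.44 where both other factors shared them, 7.08 where 1 did and 5.34 where neither did. The whole DPF3a list gave 6.74, 7.57 and 5.99, with the highest median where 1 other factor shared the peak. SMAD4 peaks gave 8.99, 6.14 and 4.73, where the whole list gave 8.87, 6.40 and 5.0. For p300 the medians at these genes were 4.55, 4.18 and 4.59, which do not fall from shared to unshared peaks. Over all their peaks the 50 genes had a median DPF3a fold of 6.76, a median SMAD4 fold of 5.81 and a median p300 fold of 4.52, where the lists had 6.70, 6.30 and 4.92. Above the 90th percentile of their list were 11% of the DPF3a, 12.4% of the SMAD4 and 5.88% of the p300 peaks.

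**Figure D5:**
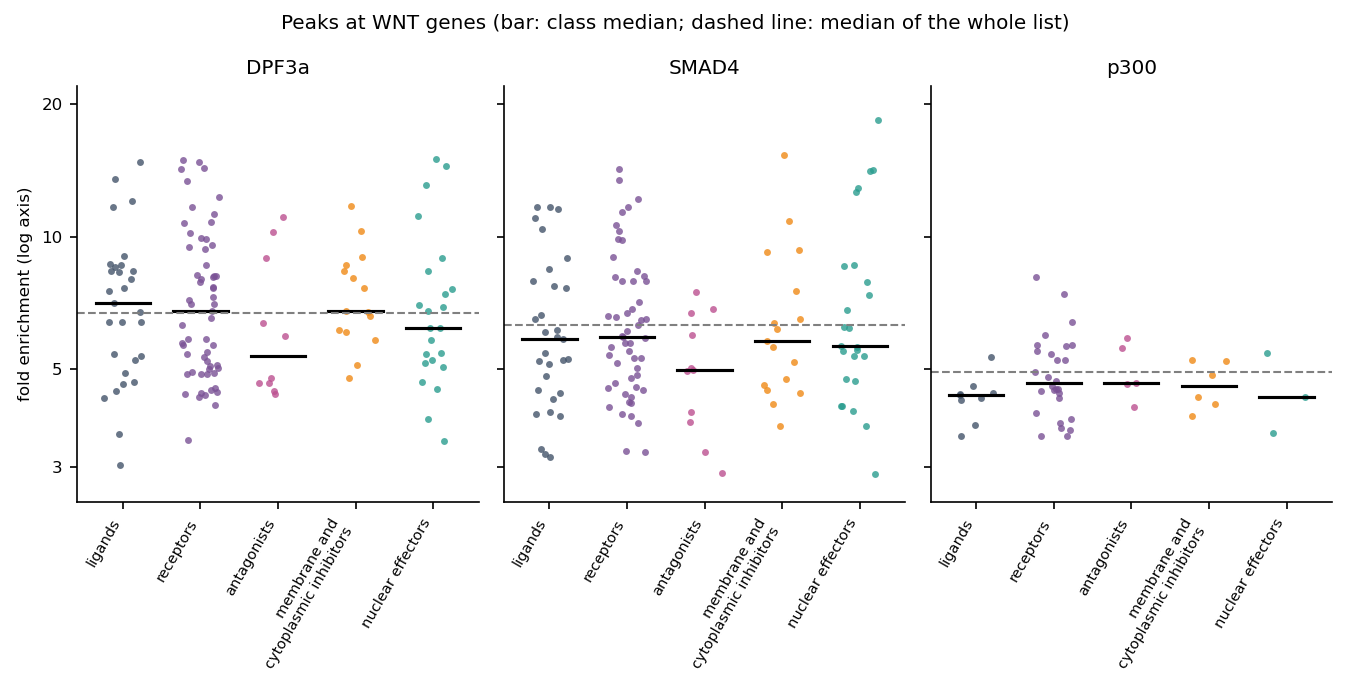
Fold enrichment of each peak (y axis) by class, on a log axis with a panel per list, the class median as a bar and the median of the whole list as a line. The medians of the 5 classes run from 5.36 to 7.08 for DPF3a, 4.98 to 5.92 for SMAD4 and 4.32 to 4.65 for p300, and the points of all classes overlap.

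Between classes, the median fold ran from 5.36 at antagonists to 7.08 at ligands for DPF3a and from 4.98 at antagonists to 5.92 at receptors for SMAD4, with wide overlap. No peak of an antagonist gene was above the 90th percentile of its list, against 4 of 29 DPF3a peaks at ligands and 7 of 59 at receptors. The antagonists had 10 DPF3a, 11 SMAD4 and 5 p300 peaks in all.

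Motifs were counted within 50 bp of each summit. The AP-1 element TGACTCA was found at 17 of 136 DPF3a summits (12.5%, 7.95 to 19.1, against 22% of the DPF3a list), 13 of 137 SMAD4 summits (9.49%, 5.63 to 15.6, against 15%) and 0 of 51 p300 summits, which allows up to 5.88% (the p300 list had 3.61%). The CAGAC element was at 19.9% of DPF3a, 16.8% of SMAD4 and 17.6% of p300 summits, against 20.3%, 24.7% and 18.7% of the lists. The palindrome GTCTAGAC was at none of the summits, which allows up to 2.21%, 2.19% and 5.88%, and the lists had it at 0.064%, 0.239% and 0.0294%. The core CTTTGA was at 5.15%, 5.11% and 5.88%, against 5.95%, 4.88% and 3.13%, and 4 of the 7 DPF3a summits with it were in RNF43 and ZNRF3. The RUNX element TGTGGTT was at 10.3% of DPF3a summits (6.23 to 16.5, against 7.04%), of which 5 were in ROR1. Of the 15 combinations of motif and list, the share of the whole list lay outside the interval in 3: AP-1 at DPF3a summits and CAGAC at SMAD4 summits (11.5 to 23.9) were less frequent at these genes, and TGTGGTT at p300 summits, with 3 matches (5.88%, 2.02 to 15.9, against 1.73%), was more frequent. These intervals are not adjusted for the number of combinations. They also take each summit as independent, although ROR1 alone gave 29 of the 136 DPF3a and 23 of the 137 SMAD4 summits. The whole lists include summits far from any gene, which the members' windows cannot hold. Whether the differences are a trait of these genes was not tested.

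The pathway genes around these members, 70 in number and listed by name, covered the rest of the route. A DPF3a peak was at 52 of them (74.3%, against 65.8% of all coding genes), a SMAD4 peak at 58 (82.9%, against 72.3%) and a p300 peak at 35 (50%, against 51.6%), and 23 held a site of all 3 (32.9%, against 29.9%). The shares for p300 and for sites of all 3 were thus near those of all coding genes. All 12 nuclear co-factors, which bind β-catenin or the TCF/LEF factors, had a DPF3a and a SMAD4 peak, and 6 had a site of all 3. Of the 20 genes of the cytoplasmic relay, 15, 19 and 13 had a DPF3a, SMAD4 or p300 peak and 10 a site of all 3. Of the 9 genes of ligand processing and further antagonists, 5 had a DPF3a, 5 a SMAD4 and 1 a p300 peak, and none had a site of all 3. Of the R-spondins, which stimulate the pathway, RSPO1, RSPO2 and RSPO4 had no peak in any list and RSPO3 had 1 DPF3a and 1 SMAD4 peak. CELSR1, a planar polarity receptor, had 17 DPF3a, 15 SMAD4 and 3 p300 peaks.

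The edge of the window was at 5000 bp upstream. The summits just inside it were a p300 peak 4855 bp upstream of ROR2 (fold 3.99), a SMAD4 peak 4409 bp upstream of LEF1 (5.54) and a SMAD4 peak 4004 bp upstream of WNT10A (5.28). Just outside were a DPF3a and a SMAD4 peak 5563 and 5624 bp upstream of WNT1 (8.67 and 10.4), which count at its neighbour WNT10B, a p300 peak 5686 bp upstream of DKK1 (5.25), and a DPF3a and a SMAD4 peak 5736 and 5820 bp upstream of WNT6 (5.80 and 8.77).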

How the data were processed

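ChIP-seq libraries of 786-O cells, 2 for each of DPF3a, SMAD4 and p300, were grouped by the factor their titles name. From the submitters' processing notes and the methods of the study, the authors trimmed reads with cutadapt, mapped them to hg38 with Bowtie2 2.3.5.1, discarded poorly mapped, mitochondrial and (with Picard) duplicate reads, and called peaks with MACS2 2.2.5. No input control is named. How the replicates were combined is not given in the sources used here, so replicate error cannot be given and no paired comparison was made. For 99.9% or more of a list the deposited score equals −log10 q multiplied by 10 and cut to a whole number, and the authors kept scores over 50. The fold enrichment (a ratio) and the −log10 p and −log10 q values deposited by the authors compare the summit pileup with a local background.

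Whole reads at each summit and the background were recovered from fold and −log10 p, and −log10 p was then off by 8.6e-04 or less. In the DPF3a, SMAD4 and p300 lists the lowest background was 1.17, 2.25 and 2.05 reads and the median summit height 25, 39 and 23 reads, which sets the precision of a fold. Intervals are exact Poisson for reads and folds and Wilson for shares, at 95%, and a count of 0 allows up to 3 counts. Sharing was checked against bedtools 2.31.1. Python 3.11.15, numpy 2.4.6, pandas 2.3.3, scipy 1.17.1 and matplotlib 3.10.9 were used, and the scripts were tested on simulated data. The members and lists were chosen with earlier results of these data known. All members are named. Values in full are given by rule for members with a site of all 3 factors, for the 5 with the most peaks and for the highest fold of each list in each class, and the values of other genes were chosen after they were seen. Alternatives were scores over 100 and 200, lists of equal size, other windows and promoters, other overlap rules, coding-exon summits left out and wider motif windows. The sequences of 2 of the 10 strongest sites are not reported here.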

Additional observations from a re-analysis of the deposited data

How the results depend on the processing

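No paired analysis was possible because each factor has 1 list made from both libraries, and for the same reason no replicate could be left out. Counts of genes, peaks and sites were recomputed under each alternative, and none changed with 1 bp overlap, with summits within 200 bp, with coding-exon summits left out or with 5000 bp on both sides by more than 1.5 times. With scores over 100, the members with a p300 peak numbered 11 and those with a site of all 3 numbered 9 (14 sites), DPF3a peaks numbered 81 and p300 peaks 17, ligands with a DPF3a, SMAD4 and p300 peak 7, 6 and 3, inhibitors with p300 1 and nuclear effectors with p300 0, and promoters with a DPF3a or p300 peak 6 and 4. With scores over 200, 19 members had a DPF3a peak and 1 a p300 peak, with 49 DPF3a, 59 SMAD4 and 1 p300 peaks, 0 sites of all 3 at 0 members, ligands at 5, 6 and 0, receptors at 6 for DPF3a and 1 for p300, nuclear effectors at 2 for DPF3a, antagonists, inhibitors and nuclear effectors at 0 for p300, and promoters at 4 for DPF3a and 1 for p300. The whole lists shrink too, from 51530 DPF3a, 46367 SMAD4 and 20380 p300 peaks to 32034, 33165 and 4158 with scores over 100. Scores over 200 leave 16171, 21383 and 462. The share of all coding genes with a peak was not computed for these scores or for lists of equal size. Those counts therefore cannot be set against a background and describe no trait of the WNT genes. With lists of equal size, 22 members had a DPF3a peak, with 58 DPF3a and 58 SMAD4 peaks, ligands at 6 and 6, receptors at 7 and promoters at 6 for DPF3a, and 15 sites of all 3. Antagonists were at 4, 4 and 3 with 20000 bp upstream and at 6, 4 and 2 by nearest start, and stayed at 2 and 2 for DPF3a and SMAD4 under the stricter lists. Promoters of 2500 bp on both sides gave 27 (DPF3a) and 16 (p300), and the DPF3a share was then no longer below that of all coding genes by more than 1 gene, and canonical starts alone gave 3 for p300. Depth limits the weak peaks most, since a fold from 11 reads has an interval from 2.85 to 9.07. Of 15 motif counts, 11 moved by over 1.5 times with 100 bp on each side, a window with more letters.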

Other observations

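The 14 genes without a peak in their window differed in how far the nearest peak was. DKK1, an antagonist that binds the LRP co-receptors, had a DPF3a peak 1241 bp beyond its end with a fold of 11.1 (60 reads) and a SMAD4 peak at 1222 bp (5.95), neither of which its window covers. WNT16 had a DPF3a peak 10824 bp upstream (8.20), WNT2 a DPF3a peak 5716 bp beyond its end (7.46) and FZD9 a SMAD4 peak 2585 bp beyond its end (4.17). DKK4 had a peak of each list within 14471 to 14568 bp upstream (6.47 for DPF3a, 10.9 for SMAD4 and 5.06 for p300), and DKK2 a DPF3a peak 16008 bp upstream (9.84). Peaks of high fold were also the nearest ones at FZD10 (DPF3a 13.3, 21338 bp beyond its end) and SFRP1 (DPF3a 15.7, 40351 bp beyond its end). WIF1, which binds WNT ligands directly, had its nearest p300 peak 48620 bp, its nearest SMAD4 peak 49231 bp and its nearest DPF3a peak 157889 bp upstream. The nearest peaks of all 3 lists were 89796 to 90095 bp upstream of WNT3, where the SMAD4 peak had a fold of 10.3. Which gene each of these peaks belongs to was not tested.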
